A study of Homo sapiens with 18 samples.

Results

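The genes described here are HSF1, the transcription factor that switches on the heat shock response, and 9 genes of the heat shock proteins and their helpers: HSPA1A, HSPA1B, HSPA8, HSPH1, HSP90AA1, HSP90AB1, DNAJB1, HSPB1 and BAG3. They were chosen by name, as 10 of the 23604 genes listed in the RNA-Seq files, together with any RNA polymerase II (RNAPII) peak over their transcription start site (TSS). All 10 passed the filter on low counts and entered the test with 16948 genes. The study asked how triptolide (TPL), a plant-derived compound that blocks XPB, the DNA translocase of the initiation complex TFIIH, alters transcription in transformed breast cells and in the cells they derive from. MCF10A-ErSrc is a breast epithelial line, used here as a single line, in which tamoxifen turns on the v-Src oncoprotein fused to an oestrogen receptor domain. Cells without tamoxifen (NT) and cells transformed with tamoxifen (TAM) received either DMSO alone or TPL over 4 h, so that the groups are NT, NT + TPL, TAM and TAM + TPL. All 4 groups carry the ErSrc fusion. Each had 2 RNA-Seq libraries from independent replicates and 1 list of RNAPII peaks.

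Heat shock proteins are chaperones, which bind unfolded proteins and help them to fold, to be refolded or to be degraded. In unstressed cells HSF1 is held inactive in chaperone complexes, and after heat or other protein damage it forms trimers that bind repeats of the motif GAA, the heat shock element, in front of its target genes. HSPA8 and HSP90AB1 are made at high levels in growing cells, whereas HSPA1A and HSPA1B are the classic inducible copies. Promoters of the inducible genes are textbook cases of RNAPII that starts, pauses a short way into the gene and waits for the activator.

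The upstream sequences of 7 of the 10 genes held a match to the letters of the heat shock element. Some of them are shown because the RNA and RNAPII data below bear on the same promoters. The sequences are the GRCh37 reference, read in the direction of transcription, and capitals mark each match to GAANNTTC or TTCNNGAA, the facing pair of GAA units, searched on both strands in the 250 bases before the canonical TSS. The first 4 lines give the long windows. The DNAJB1 window ends short of the TSS, where an annotated untranslated exon of another transcript begins.
HSPA1A (chr6:31783070-31783319, plus strand): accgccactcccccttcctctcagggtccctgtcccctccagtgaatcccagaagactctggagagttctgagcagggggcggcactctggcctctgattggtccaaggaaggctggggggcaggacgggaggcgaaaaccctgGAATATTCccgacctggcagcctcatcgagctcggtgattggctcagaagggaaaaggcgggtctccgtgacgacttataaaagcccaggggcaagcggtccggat
HSPB1 (chr7:75931740-75931989, plus strand): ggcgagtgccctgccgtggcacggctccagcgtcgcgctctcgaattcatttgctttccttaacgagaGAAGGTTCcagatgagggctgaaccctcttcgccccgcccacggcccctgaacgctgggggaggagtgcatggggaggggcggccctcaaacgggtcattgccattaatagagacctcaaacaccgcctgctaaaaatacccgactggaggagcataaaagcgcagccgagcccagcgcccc
DNAJB1 (chr19:14629220-14629459, minus strand): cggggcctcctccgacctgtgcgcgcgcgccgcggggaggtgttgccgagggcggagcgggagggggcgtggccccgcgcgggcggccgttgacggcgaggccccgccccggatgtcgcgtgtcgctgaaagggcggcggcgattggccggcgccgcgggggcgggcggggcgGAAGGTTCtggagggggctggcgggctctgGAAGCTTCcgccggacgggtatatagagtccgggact
HSP90AA1 (chr14:102553382-102553631, minus strand): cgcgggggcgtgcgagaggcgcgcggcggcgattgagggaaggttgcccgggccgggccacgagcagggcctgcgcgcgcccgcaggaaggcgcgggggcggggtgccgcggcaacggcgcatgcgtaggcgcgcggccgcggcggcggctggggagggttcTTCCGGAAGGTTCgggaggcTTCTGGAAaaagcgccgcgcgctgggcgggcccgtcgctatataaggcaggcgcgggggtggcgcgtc
The next 4 lines give 30 bases around the matches of HSPA8 and HSPH1, 2 for each gene.
HSPA8, distal (chr11:122933054-122933083, minus strand): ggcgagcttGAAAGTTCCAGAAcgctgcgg
HSPA8, proximal (chr11:122932879-122932908, minus strand): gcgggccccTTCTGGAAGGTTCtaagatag
HSPH1, distal (chr13:31736162-31736191, minus strand): gggtagaatctTTCCAGAAggctcgagaag
HSPH1, proximal (chr13:31736080-31736109, minus strand): tgccgcagaTTCTGGAAAGTTCtgatcagt
The pair of units was present in 7 of the 10 windows (HSPA1A, HSPA1B, HSPA8, HSP90AA1, HSPH1, DNAJB1 and HSPB1), and in 9.42% of the windows of 19881 protein-coding genes. A run of 3 units, that is the pair followed by NN and another GAA or TTC unit facing its neighbour, was present in 3 of the 10 (HSPA8, HSP90AA1 and HSPH1) and in 0.322% of all windows. In HSPA8 the runs of 3 units began 230 and 55 bases before the TSS, in HSP90AA1 88 bases and in HSPH1 59 bases before it. The matches began 106 bases before the TSS in HSPA1A, 105 in HSPA1B and 182 in HSPB1, and DNAJB1 held matches at 77 and 47 bases. The HSF1, HSP90AB1 and BAG3 windows held no match to these letters, which says nothing about elements elsewhere. A match is a description of the sequence and not a bound site.

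The libraries were similar in depth, with 7461309 to 8349448 expected counts, and the 10 genes together took between 0.688% and 1.06% of them. Markers of the labelled cell type were present: 7 basal epithelial genes summed to between 9336 and 14876 FPKM in the 4 NT libraries with or without TPL and between 1931 and 3864 FPKM in the 4 TAM libraries. The 8 markers of leukocytes, endothelium, fibroblasts and fat cells summed to between 2.20 and 5.83 FPKM, with no entry for the endothelial marker CDH5 in any library, taken as 0, and PECAM1, of endothelium and leukocytes, between 0.46 and 1.69 FPKM. Levels are given in FPKM (fragments per kilobase of transcript, relative to all mapped reads), and changes as log2 fold changes fitted by edgeR's quasi-likelihood test on the counts, with Benjamini-Hochberg adjusted p-values over all 16948 genes. A strict call needed an adjusted p no higher than 0.001 together with a change of 1.2 or more on the log2 scale, the limits the study used, and a call at 5% needed an adjusted p of at most 0.05. No added RNA standard was used in the scaling, so every value is relative to the rest of its library, and a loss of RNA common to all genes would not be seen.

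Among the 10 genes TPL lowered HSPA8, the constitutive HSP70, and DNAJB1, its J-domain partner, in both cell states, while HSPA1A, HSPA1B, HSP90AA1, HSP90AB1 and BAG3 had no change called by edgeR in either. In NT cells 1 gene met the strict limits (HSPA8), where 3.93% of all genes did, and 3 were lower at 5% (HSPA8, DNAJB1 and HSPH1), where 19.8% of all genes were lower and 17.2% higher. In TAM cells 0 of the 10 met the strict limits, where 2.88% of all genes did, and 4 were lower at 5% (HSF1, HSPA8, DNAJB1 and HSPB1), where 18.6% of all genes were lower and 14.3% higher. At an unadjusted p under 0.05 edgeR gave 4 of the 10 in NT cells, where it gave 47.8% of all genes, and 5 in TAM cells, where it gave 45.1%. DESeq2 gave 2 and 1 strict calls among the 10. The share of all genes that DESeq2 put past the strict limits is not given here, so these counts cannot be set against it. In edgeR no member was higher with TPL at 5% in either state. The median log2 fold change was -0.12 for the 10 genes and 0.09 for all genes in NT cells, and -0.33 against 0.05 in TAM cells. The FPKM of treated and control libraries did not overlap for 7 of the 10 genes in NT cells, where 69.1% of all genes did not, and for 8 of the 10 in TAM cells, where 74.7% did not.

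**Figure D1:**
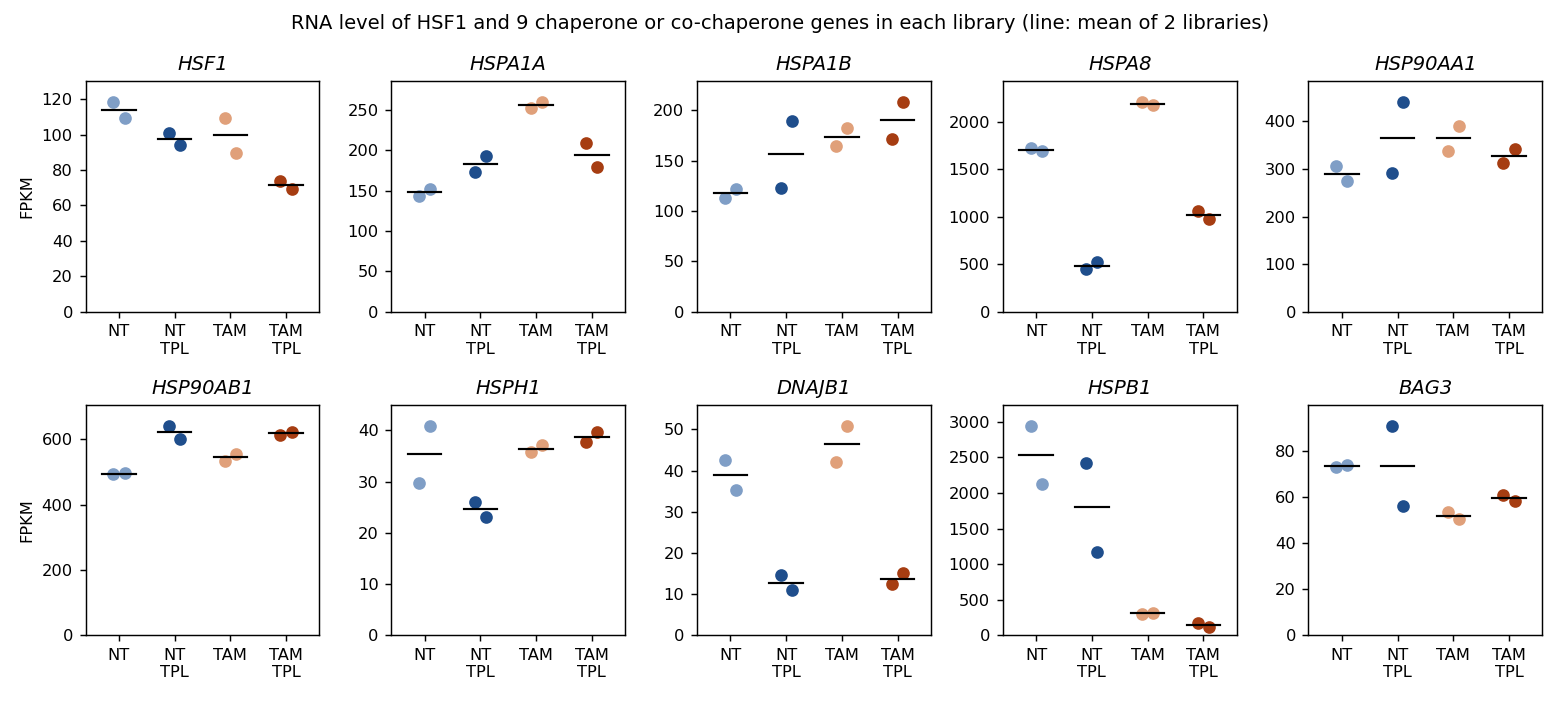
RNA level in FPKM (y axis, from 0, a scale of its own for each gene) of the 10 genes in each of 8 RNA-Seq libraries, grouped on the x axis as NT, NT + TPL, TAM and TAM + TPL. Points are single libraries and the line is the mean of 2. HSPA8 dropped from at least 1689 to at most 520.3 FPKM in NT cells, and HSPB1 lay between 2125 and 2946 FPKM in NT cells and near 308.2 in TAM cells.

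HSF1 itself (gene ID 3297, chromosome 8) stayed expressed in every group. Its level was 118 and 109 FPKM in the NT libraries and 101 and 94.1 FPKM with TPL. In TAM cells it was 110 and 89.7 FPKM, and 73.7 and 69.3 FPKM with TPL. The treated libraries lay below the controls in both states without overlap, while the NT and TAM controls overlapped. In TAM cells HSF1 fell with TPL, by 0.53 on the log2 scale (SE 0.140, adjusted p = 0.0283), a call that 4 of 20 alternative settings did not make. In NT cells the log2 fold change was -0.23 (SE 0.140, adjusted p = 0.229), and the difference between the states did not pass the test (-0.30, adjusted p = 0.627).

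HSPA8 (gene ID 3312, chr11:122928197-122933938, minus strand), the HSP70 that growing cells use for everyday folding and for uncoating clathrin vesicles, was the most abundant member with DMSO in TAM cells. It measured 1723 and 1689 FPKM in NT cells, and 453 and 520.3 FPKM with TPL. In TAM cells it measured 2210 and 2177 FPKM, and 1066 and 974 FPKM with TPL. Every treated library lay below every control library, and the TAM + TPL libraries remained above the NT + TPL libraries. The log2 fold change with TPL was -1.81 (SE 0.139, adjusted p = 0.000348) in NT cells and -1.15 (SE 0.137, adjusted p = 0.00147) in TAM cells. The difference between the 2 changes was 0.66 (SE 0.191) with an adjusted p of 0.304 by edgeR. DESeq2 gave 0.67 with an adjusted p of 0.0211, past 5%, so whether the fall was smaller in TAM cells depended on the tool. Without any 1 library the NT value stayed between -1.94 and -1.68 on the log2 scale, but 7 of those 8 fits missed the strict limit on adjusted p. HSPA8 stayed past 5% in all 20 alternatives in each state.

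DNAJB1 (gene ID 3337, minus strand of chromosome 19), a J-domain protein that hands unfolded proteins to HSP70 and sets off its ATP hydrolysis, followed HSPA8. It measured 42.6 and 35.2 FPKM in NT cells and 14.6 and 10.99 FPKM with TPL. In TAM cells it measured 42.2 and 50.9 FPKM, and 12.4 and 15.1 FPKM with TPL. The treated and control libraries were far apart in both states. DNAJB1 fell in both states, with log2 fold changes of -1.63 (SE 0.195, adjusted p = 0.00137) in NT cells and -1.80 (SE 0.195, adjusted p = 0.00113) in TAM cells, and the fall held at 5% in all 21 alternatives in each state. The files list DNAJB1 under 2 entries, and the values above are those of the main one. With both entries summed the values were -1.54 (adjusted p = 0.000445) and -1.55 (adjusted p = 0.000476), past the strict limits in both states.

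HSPA1A (gene ID 3303, chr6:31783320-31785723, plus strand) and HSPA1B (gene ID 3304, chr6:31795515-31798031, plus strand) encode the same inducible HSP70 protein from neighbouring copies. Of all stretches of 50 bases in the HSPA1A transcript, 75.1% also occur in that of HSPA1B, so the division of reads between them is an estimate, and the estimated share of HSPA1A in the pair moved between 45.2% and 59.5% from library to library. HSPA1A measured 144 and 152 FPKM in NT cells, 173 and 193 with TPL, 253 and 260 in TAM cells, and 209 and 179 in TAM cells with TPL. HSPA1A with TPL thus lay above both NT controls and below both TAM controls. HSPA1B measured 113 and 122 FPKM in NT cells, 123 and 190 with TPL, 164 and 183 in TAM cells, and 172 and 208 in TAM cells with TPL.

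By edgeR none of the TPL changes of this pair passed 5%. For HSPA1A the log2 fold change was 0.30 (SE 0.143, adjusted p = 0.139) in NT cells and -0.45 (SE 0.143, adjusted p = 0.0507) in TAM cells, with a difference of -0.75 (SE 0.203) whose unadjusted p was 0.00773 and adjusted p 0.284. The HSPA1A value in TAM cells lay at the threshold, and 6 of 20 alternatives put it past 5%, among them DESeq2 (-0.42, adjusted p = 0.0120) and the fits without either NT + TPL library (both -0.44, adjusted p = 0.0320 and 0.0322). In NT cells 1 of 20 did, upper-quartile scaling (0.52, adjusted p = 0.0290). DESeq2 also called the difference between the states for HSPA1A (-0.74, adjusted p = 0.0145). For HSPA1B the values were 0.42 (adjusted p = 0.201) in NT cells, with 1 of 19 alternatives past 5%, and 0.08 (adjusted p = 0.805) in TAM cells. Summed over the pair, which avoids the division of reads, the level was 265 ± 12.4 FPKM in NT cells, 339 ± 60.9 with TPL, 430 ± 17.7 in TAM cells and 384 ± 4.82 in TAM cells with TPL (mean ± SD, n = 2 libraries). The summed log2 fold changes were 0.35 (adjusted p = 0.137) in NT cells and -0.20 (adjusted p = 0.378) in TAM cells. Their difference was -0.56 (adjusted p = 0.472). By edgeR no change of the inducible pair passed 5% in either state, whereas the constitutive HSPA8 fell in both, and the difference between these genes was not itself tested.

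HSPH1 (gene ID 10808, minus strand of chromosome 13) encodes a large HSP70 relative that works as a nucleotide exchange factor. It measured 29.8 and 40.9 FPKM in NT cells and 26.1 and 23.2 with TPL, and 35.8 and 37.1 in TAM cells and 37.7 and 39.8 with TPL. The treated libraries lay below the controls in NT cells and above them in TAM cells, the latter by a margin smaller than the spread of the NT controls. HSPH1 fell in NT cells by 0.53 on the log2 scale (SE 0.168, adjusted p = 0.0450), a call that 14 of 20 alternatives did not make, and without the second NT library the value was -0.30 (adjusted p = 0.236). In TAM cells the value was 0.04 (SE 0.166, adjusted p = 0.862), and the difference between the states was 0.57 (SE 0.236, adjusted p = 0.469).

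The cytosolic HSP90 genes encode chaperones that finish the folding of kinases and hormone receptors and that also hold HSF1 inactive. HSP90AA1 (gene ID 3320), the more inducible of the pair, measured 307 and 274 FPKM in NT cells and 290.4 and 441 with TPL, and 339 and 390 in TAM cells and 313 and 341 with TPL. Control and treated libraries overlapped in both states. The log2 fold changes were 0.33 (SE 0.226, adjusted p = 0.283) and -0.21 (adjusted p = 0.510), and without the second NT + TPL library, which held the 441 FPKM, the first became -0.03.

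HSP90AB1 (gene ID 3326), the constitutive copy, measured 492 and 496 FPKM in NT cells and 641 and 599.5 with TPL, and 535 and 555 in TAM cells and 613 and 623 with TPL. The treated libraries lay above the controls in both states. The log2 fold changes of 0.32 (SE 0.109, adjusted p = 0.0557) and 0.14 (adjusted p = 0.346) did not pass 5% in edgeR. The value in NT cells passed 5% in 3 of 20 alternatives, at 0.34 with DESeq2 (adjusted p = 0.00270), 0.34 with its size factors in edgeR (adjusted p = 0.0487) and 0.54 with upper-quartile scaling (adjusted p = 0.0111), and it became -0.04 when libraries were scaled to equal GAPDH. The value in TAM cells passed in 1 of 20, upper-quartile scaling (0.38, adjusted p = 0.0398).

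HSPB1 (gene ID 3315, chr7:75931990-75933612, plus strand), a small heat shock protein that holds unfolded proteins in large oligomers without using ATP, was where the cell states differed most among these genes. It measured 2946 and 2125 FPKM in NT cells and 307 and 309.5 FPKM in TAM cells. With TPL it measured 2427 and 1178 FPKM in NT cells and 176 and 124 in TAM cells. HSPB1 was lower in TAM than in NT cells (-3.02 on the log2 scale, SE 0.360, adjusted p = 0.00418), and 2 of 20 alternatives, those without a TAM library, gave an adjusted p just above 5% (0.0525 and 0.0527). TPL lowered it further in the TAM cells, by -1.09 on the log2 scale (SE 0.341, adjusted p = 0.0476), a call that 11 of 20 alternatives did not make, and in NT cells, where the libraries overlapped, the value was -0.51 (SE 0.334, adjusted p = 0.260). The summed basal epithelial markers were lower in TAM than in NT cells in the same libraries (3533 to 3864 against 13261 to 14876 FPKM with DMSO), and their part in the result was not tested. The sum was carried by KRT5 and KRT17, and of the 7 markers 3 were lower at 5% (KRT5, KRT14 and KRT17) and 0 higher. LAMB3 (0.69) and TP63 (0.36) had values above 0 on the log2 scale that did not pass 5%. In bulk RNA fewer cells of a type and less RNA per cell cannot be told apart.

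BAG3 (gene ID 9531, chr10:121410892-121437331, plus strand), a co-chaperone that couples HSP70 to small heat shock proteins and to selective autophagy, measured 72.9 and 73.6 FPKM in NT cells and 90.8 and 56.2 with TPL. In TAM cells it measured 53.3 and 50.3 FPKM, and 60.8 and 58.3 with TPL. The NT + TPL libraries lay on either side of the NT controls. The log2 fold changes with TPL were -0.01 (SE 0.198, adjusted p = 0.975) and 0.15 (adjusted p = 0.582).

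**Figure D2:**
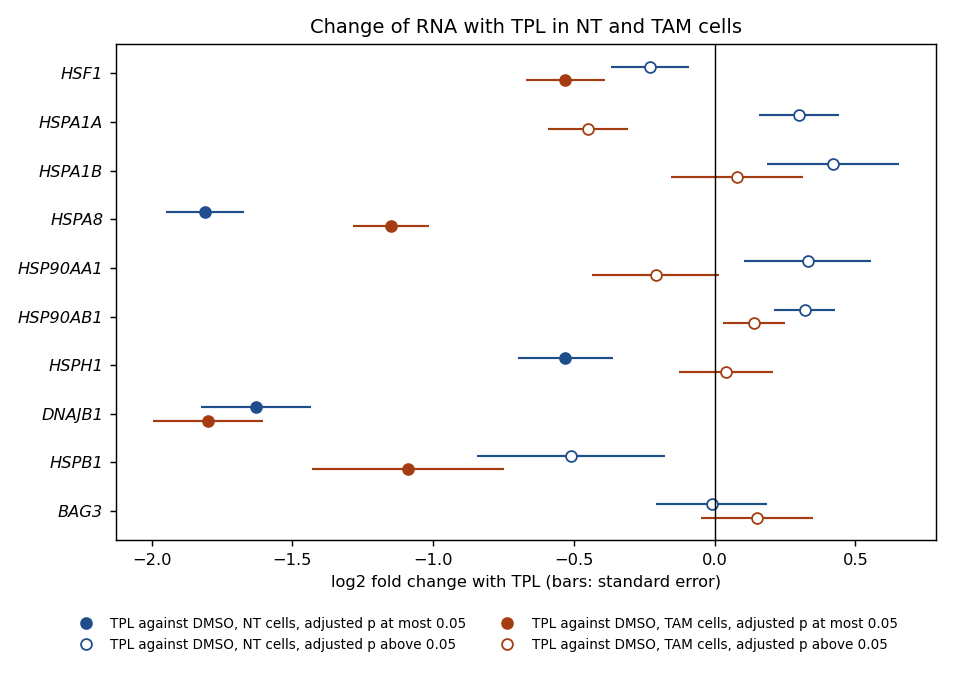
Fitted log2 fold change with TPL against DMSO (x axis) for each of the 10 genes (y axis) in NT cells (blue) and in TAM cells (brown), from 2 against 2 libraries; bars are standard errors, and filled points have an adjusted p of at most 0.05. HSPA8 and DNAJB1 lie at -1.15 or below in both states. HSPA1A, HSPH1, HSP90AA1 (0.33 and -0.21) and BAG3 (-0.01 and 0.15) lie on opposite sides of 0 in the 2 states.

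The comparison of TAM against NT cells with DMSO uses the same control libraries as the TPL comparisons and is not independent of them. Only the TAM cells had tamoxifen, so effects of tamoxifen itself and of transformation cannot be told apart here. At 5%, HSPA1A was higher in TAM cells and HSPB1 lower, where 3.46% of all genes were higher and 3.39% lower. For 0 of the 10 the strict limits were met in edgeR, where 0.655% of all genes met them. DESeq2 made 1 strict call, and its share of all genes is not given here. At an unadjusted p under 0.05 edgeR gave 5 of the 10, where it gave 19.9% of all genes. HSPA1A rose by 0.81 on the log2 scale (SE 0.144, adjusted p = 0.01998), or 1.75-fold, and the pair summed gave 0.71 (adjusted p = 0.0551). Without any 1 of the 4 libraries compared, the adjusted p of HSPA1A lay between 0.108 and 0.142, and with libraries scaled to equal GAPDH its value was 0.33 (adjusted p = 0.246). HSPA8 gave 0.38 (adjusted p = 0.178), DNAJB1 0.27 (adjusted p = 0.492) and BAG3 -0.48 (adjusted p = 0.237). The libraries of the 2 states did not overlap for 7 of the 10 genes, where 52.7% of all genes did not. The median was 0.21 over the 10 genes and -0.03 over all genes.

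The test of whether TPL acted differently in the 2 states called by edgeR 0 of the 10 genes at the strict limits and at 5%, where 0% and 0.165% of all genes were called. At an unadjusted p under 0.05 it gave 3 of the 10, where it gave 10.6% of all genes. DESeq2 gave 0 strict calls, and at 5% it called 2 of the 10, HSPA1A (-0.74, adjusted p = 0.0145) and HSPA8 (0.67, adjusted p = 0.0211), where it called 3.54% of the 14648 genes it gave an adjusted p. The other alternatives run for these 2 differences did not pass 5%.

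The RNAPII lists gave a second view of the same promoters. A listed peak covered the canonical TSS of 8 of the 10 genes in the NT list and of 7 in the list with TPL, and of 8 in each of the TAM lists, without and with TPL, where 47.7%, 38.2%, 42.1% and 37.4% (same order) of 19881 protein-coding TSSs were covered. The lists hold peak positions without heights or read counts, with 1 list per condition, so widths and presence are descriptions with no test. The names of the peaks in the TAM list carry a different cut-off label from those of the other 3 lists, and all names carry the label of replicate 1, so a difference from the TAM list may include that of the cut-off, which was not tested.

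The HSPA8 peak became shorter on its downstream side with TPL in both states, and the HSP90 peaks did so in NT cells. In NT cells the HSPA8 peak was 10537 bases wide, reached 9207 bases downstream of the TSS and covered 100% of the annotated gene. With TPL it was 1970 bases wide and reached 768 bases downstream. In TAM cells it was 9547 bases wide, and 1518 bases with TPL, reaching 351 bases downstream. The region upstream of the TSS stayed covered in all 4 lists. HSPA8 thus lost RNA with TPL in both states. Its peak kept its promoter part and lost most of its gene body part.

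HSP90AA1 (chr14:102547079-102606036, minus strand) had a peak of 11097 bases in NT cells and 1547 bases with TPL. HSP90AB1 (chr6:44213903-44221625, plus strand) had 9882 bases in NT cells, covering 96.1% of the gene. With TPL it had 2361 bases, reaching 1944 bases downstream and covering 30.6% of the gene. RNA from these genes was not called lower in NT cells. In TAM cells the peaks were already short, at 1129 bases for HSP90AA1 and 1616 for HSP90AB1, and measured 2212 and 1353 bases with TPL. Peaks of 5000 bases or more stood over 3 of the 8 covered genes in NT cells and over 1 of 8 in TAM cells. With TPL they stood over 0 of 7 covered genes in NT cells and 0 of 8 in TAM cells. For NT, NT with TPL, TAM and TAM with TPL, in that order, they stood over 2.01%, 0.368%, 0.920% and 0.256% of all covered TSSs. Of the genes with a peak in both lists, the width was less by 50% or more with TPL for 3 of 7 in NT cells (18.1% of 7316 TSSs) and for 1 of 7 in TAM cells (9.07% of 6766 TSSs).

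**Figure D3:**
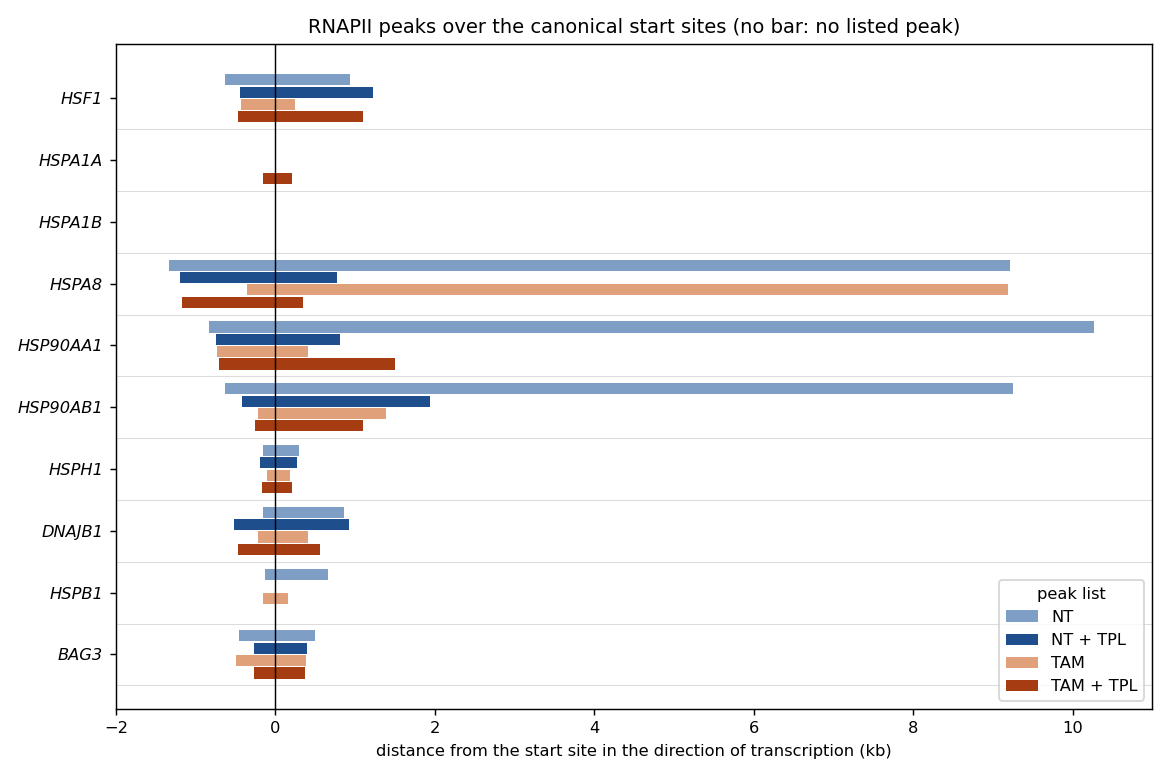
Extent of the listed RNAPII peak over the canonical TSS of each gene (y axis) in kb from the TSS, in the direction of transcription (x axis), with 1 bar for each of the 4 lists and no bar where no peak was listed. The NT bars of HSPA8, HSP90AA1 and HSP90AB1 and the TAM bar of HSPA8 reach more than 9 kb downstream, and none of the bars with TPL reaches 2 kb.

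HSPB1 and HSPA1A were the genes whose promoter peak came or went. HSPB1 had a peak of 787 bases in NT cells and of 314 bases in TAM cells and none in either list with TPL. Such a loss was common, since 2172 of the TSSs covered in NT cells were not covered in NT + TPL, against 288 gained. The HSPB1 peaks reached 127 and 154 bases upstream of the TSS, short of its heat shock element match at 182 bases. HSPA1A had a peak in the TAM + TPL list alone, 369 bases wide and reaching 159 bases upstream, over its element match at 106 bases, and 665 TSSs were covered in TAM + TPL but not in TAM. HSPA1B had none. The authors' build also holds alternative copies of this part of chromosome 6, and reads that match both HSPA1A and HSPA1B or several copies cannot be placed uniquely, so that the absence of a peak over these copies does not show the absence of RNAPII.

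The remaining promoters kept a peak in all 4 lists. The HSF1 peak measured 1566 and 1663 bases in NT and NT + TPL, and 671 and 1565 in TAM and TAM + TPL. The DNAJB1 peak measured 1018 and 1441 bases, and 624 and 1023 bases, so that the peak over its TSS was not narrower where its RNA fell. Each list without TPL held a second peak near it, at -558 to -272 bases from the TSS in NT and 479 to 636 in TAM. With TPL 1 peak ran from -519 to 921 in NT cells and from -462 to 560 in TAM cells, over part of those spans. The widths of the single peaks with and without TPL are therefore not strictly alike. HSPH1 had the narrowest peaks of these, 445 and 473 bases, and 289 and 383 bases, and BAG3 measured 959 and 674 bases, and 878 and 643 bases. The median listed peak was 632 bases wide in NT cells and 553 with TPL, and 406 in TAM cells and 455 with TPL.

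Among 71 other genes of the chaperone system, listed by family, 66 were tested. With TPL 10 were higher and 27 lower at 5% in NT cells (median log2 fold change -0.29), and 10 were higher and 23 lower in TAM cells (median -0.25), beside the shares of all genes given above. For 0 of the 66 did edgeR call the difference between the states at 5%, so a call in 1 state alone does not show a difference. The HSP70 family held genes that rose. HSPA2, an HSP70 best known from developing sperm, measured 0.92 and 1.05 FPKM in NT cells and 14.3 and 14.4 with TPL, and 1.02 and 1.11 in TAM cells and 13.7 and 11.5 with TPL. It rose by 3.85 (adjusted p = 0.000195) and 3.51 (adjusted p = 0.000252) on the log2 scale, past the strict limits in both states. HSPA12A, a distant relative, rose by 2.31 (adjusted p = 0.00105) and 2.24 (adjusted p = 0.00127). HSPA5, the HSP70 of the endoplasmic reticulum, rose in TAM cells by 0.79 (adjusted p = 0.00388) and gave 0.22 in NT cells (adjusted p = 0.185). Of 11 HSP70 relatives tested, 2 were higher and 3 lower in NT cells, and 3 higher and 2 lower in TAM cells. The lower ones were HSPA4, HSPA9 and HYOU1 in NT cells and HSPA9 and HSPA6 in TAM cells, named here because their number is small and after their values were seen. HSPA6, a strictly inducible HSP70, measured 1.46 and 1.76 FPKM in TAM cells and 0.09 and 0 FPKM with TPL, and 0.36 and 0.47 FPKM in NT cells and 0.27 and 0.22 with TPL.

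Among the co-chaperones more were lower than higher. Of 19 tested, 4 were higher and 11 lower in NT cells, and 1 was higher and 8 lower in TAM cells. BAG2, a nucleotide exchange factor of HSP70, went from 33.7 and 34.2 to 4.65 and 3 FPKM in NT cells and from 33.7 and 39.4 to 5.99 and 4.97 FPKM in TAM cells, with log2 fold changes of -3.16 (adjusted p = 0.000277) and -2.78 (adjusted p = 0.000410). BAG1, of the same family as BAG2 and BAG3, fell too, with -1.38 (adjusted p = 0.00149) and -1.56 (adjusted p = 0.00123). BAG3, in contrast, gave -0.01 and 0.15, a contrast between genes that was not tested.

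Of 12 J-domain proteins other than DNAJB1, 2 were higher and 5 lower in NT cells, and 3 higher and 4 lower in TAM cells. DNAJA2 was among the lower in both states (-1.22 and -1.32) and DNAJA1 among the higher (1.03 and 0.81), both named after their values were seen. Of 10 chaperonins, 4 were lower in NT cells (CCT2, CCT3, CCT5 and CCT6A), 5 in TAM cells (the same genes and HSPE1) and 0 higher. SERPINH1, the collagen chaperone, fell by 1.23 in NT cells (adjusted p = 0.000961) and by 0.66 in TAM cells (adjusted p = 0.00979). UBB, which supplies ubiquitin during stress and is made of repeated sequence, so that its read count is uncertain, rose by 1.42 in NT cells (adjusted p = 0.00104) and by 0.91 in TAM cells (adjusted p = 0.00588). Of the 3 small heat shock proteins tested beside HSPB1, 1 was higher in each state, HSPB8, which measured 0 and 0.12 FPKM in NT cells and 5.57 and 1.92 with TPL, and 0 in both TAM libraries and 0.71 and 0.36 with TPL. Of the 2 HSP90 relatives, HSP90B1 of the endoplasmic reticulum was higher in TAM cells (0.51, adjusted p = 0.0158) and gave 0.21 in NT cells (adjusted p = 0.186). Of the 5 relatives and partners of HSF1 tested, HSF2 was lower in NT cells (-1.16, adjusted p = 0.0196), HSBP1L1 was lower in TAM cells (-0.65, adjusted p = 0.0287) and 0 were higher. In the other state HSF2 gave -0.42 (adjusted p = 0.275) and HSBP1L1 0.23 (adjusted p = 0.321). In the TAM against NT comparison 1 of the 66 was higher (DNAJB5, 2.07) and 2 were lower (BAG1, -0.94, and UNC45A, -0.71). Of all genes, 3.46% were higher and 3.39% lower at 5%.

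**Figure D4:**
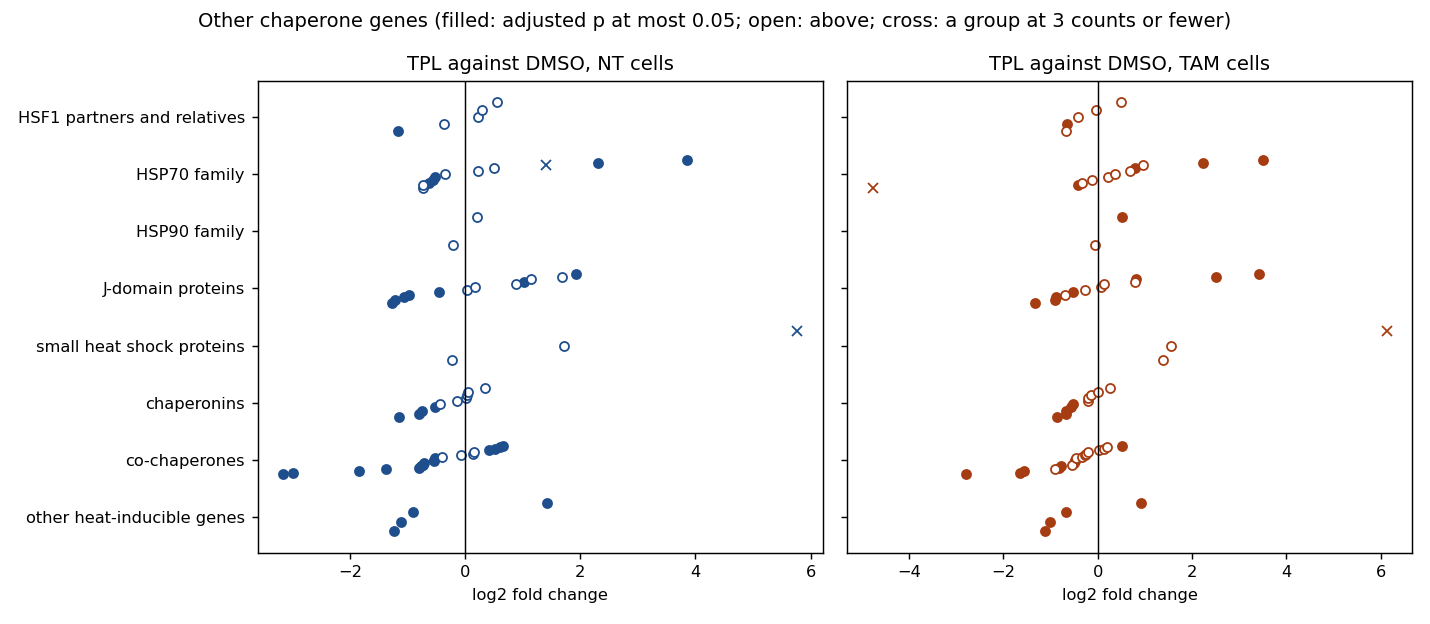
Fitted log2 fold change with TPL (x axis) of 66 other chaperone genes in NT cells (left) and TAM cells (right), 1 row of points for each list; filled points have an adjusted p of at most 0.05, open points do not, and crosses mark genes with 3 counts or fewer in every library of 1 group, whose fold depends on the fit. The co-chaperones reach -3.16 and the HSP70 relatives reach 3.85 in NT cells.

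Among the genes whose levels ran most like those of HSF1 over the 8 libraries, by Pearson's r of log2(CPM + 1) among 14135 genes, were ELMO3 (0.976) and SORBS3 (0.967). For HSPA1A they were PLK1 (0.966), RASD1 (0.965) and ARHGAP4 (0.952). These values share the same 4 groups and are a description of the pattern.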

How the data were processed

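Poly-A RNA of 8 cultures and RNAPII-bound DNA of 8 further samples, with 2 inputs, came from MCF10A-ErSrc cells. For the RNA the authors mapped clean reads to transcripts (Bowtie2) and ran RSEM, and its expected counts were deposited as they came, not normalized. The FPKM values were deposited by the authors from the same RSEM step, per kilobase of effective length and relative to all mapped reads. For RNAPII the authors used SOAP2 on hg19 and MACS (version 1.4.2 in the submitters' processing notes) with input as control, and deposited the positions of those peaks that hold a TSS, with no other value.

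Genes without a read were taken as 0. Symbols were found for 21077 of 23604 genes through the gene ID and for 2405 through an accession, and 122 had none. After rounding, the counts went into edgeR 4.0.16 (R 4.3.3) with TMM factors from 0.975 to 1.03 and its filter by group. Its quasi-likelihood test, with Benjamini-Hochberg adjustment, used 1 fit of 4 groups without a replicate block, and the fit was tested on simulated data. Alternatives used DESeq2 1.42.0 and limma 3.58.1, the latter on log2(FPKM + 1) and log2(FPKM + 0.1). Promoters and TSSs came from GRCh37 with the GENCODE annotation lifted to it, taking the Ensembl canonical transcript. Tables and figures used Python 3.11.15, numpy 2.4.6, pandas 2.3.3 and matplotlib 3.10.9.

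The 10 genes and the lists were chosen with earlier results of these data known. Genes named from the wider lists by rule were, for each TPL comparison, up to 3 in each direction with the smallest adjusted p past 5%. All others named from these lists were chosen after their values were seen, also where this is not said beside them. Some genes that these rules select are not reported here. Depth was 7461309 to 8349448 expected counts per library, and the 2 libraries per group limit the precision. The inputs have no file here and were not used.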

Additional observations from a re-analysis of the deposited data

Results flagged for a closer look

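HSPA1A and HSPH1 were flagged because every treated library moved one way in NT cells and the other way in TAM cells. The share of all genes with such opposite directions is not given here, so the pattern cannot be called unusual. Treated and control libraries not overlapping was common by itself, at 69.1% of all genes for NT and 74.7% for TAM. For HSPA1A both NT + TPL libraries lay above both NT libraries and both TAM + TPL libraries lay below both TAM libraries, and the fitted difference between the 2 log2 fold changes was -0.75. For HSPH1 the directions were the opposite, and the difference was 0.57. Its separation in TAM cells was narrow, with 37.1 FPKM in the higher control and 37.7 in the lower treated library. The fitted change there was 0.04 (edgeR, adjusted p = 0.862). The test of the difference gave adjusted p-values of 0.284 and 0.469 by edgeR over 16948 genes. DESeq2 gave adjusted p-values of 0.0145 for HSPA1A (-0.74) and 0.204 for HSPH1 (0.58). The difference for HSPA1A thus passed 5% by DESeq2 but not by edgeR, and that for HSPH1 passed by neither. Groups of 2 libraries are too small for a test of outlying libraries.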

How the results depend on the processing

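The count of strict calls among the 10 genes was small enough for 1 gene to move it. The share of all genes past the strict limits is not given here for the alternatives. In NT cells, against 1 as reported, it was 2 with DESeq2, with scaling to equal GAPDH, without a filter on low counts, with at least 10 counts in every library, with the DNAJB1 entries summed and with an adjusted p of 0.05 and the same fold minimum, 3 at an adjusted p of 0.05 alone, 0 with only the 2 groups compared, and between 0 and 1 without 1 library. In TAM cells, against 0, it was 1 with DESeq2, without the filter, with at least 10 counts, with the entries summed and at 0.05 with the fold minimum, and 4 at 0.05 alone. In TAM against NT, against 0, it was 1 with DESeq2, GAPDH, at least 10 counts and 0.05 with the fold minimum, and 2 at 0.05 alone. The replicate numbers showed no sign of pairing between groups, where the correlation of replicate differences ran from -0.24 to 0.10. Such correlations cannot exclude that the libraries were prepared in pairs. With a replicate block the strict count in NT cells was 0, because the adjusted p of HSPA8 became 0.00170, and with crossed numbers in NT (r = -0.24) it was also 0; the block moved no other count. Summing the DNAJB1 entries and crossing the numbers were chosen after seeing the data.

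Among the values of single genes under an alternative, 26 changed sign and 743 kept their sign and their side of the strict limits. The 26 all had an adjusted p above 5%. BAG3 with TPL in NT cells gave 0.01 with DESeq2, its size factors or library size only, 0.21 with upper-quartile scaling, 0.05 with at least 10 counts, 0.00 with only the 2 groups, and -0.35 to 0.28 without 1 library. GAPDH scaling turned HSPA1A to -0.06, HSP90AA1 to -0.01 and HSP90AB1 to -0.04 with TPL in NT cells, HSPA1B to -0.03 and HSPH1 to -0.07 in TAM cells, and HSPA8 to -0.09, HSP90AA1 to -0.12, HSP90AB1 to -0.32, HSPH1 to -0.43 and DNAJB1 to -0.19 in TAM against NT. It also turned the difference between the states to 0.06 for HSP90AB1 and to 0.07 for DNAJB1. Upper-quartile scaling turned HSP90AA1 in TAM cells to 0.03. Without 1 library, HSP90AA1 in NT cells ran from -0.03 to 0.63, HSPA1B in TAM cells from -0.05 to 0.21, HSPH1 in TAM against NT from -0.15 to 0.30, and the differences between the states of HSPA1B from -0.63 to 0.05 and of BAG3 from -0.13 to 0.51. Beside those named with the genes, values short of 5% passed it for HSPB1 in 2 of 20 alternatives and HSF1 and HSP90AA1 in 1 of 20 with TPL in NT cells, and for HSPA1B in 3 of 19 and HSPA8, HSF1 and BAG3 in 1 of 20 in TAM against NT. The median of all genes was 0.09 with TPL in NT cells, 0.31 with upper-quartile scaling and -0.26 with GAPDH scaling. The peak counts kept their size with any annotated TSS, with a window of 1 kb and with 100 bases to either edge. With 2 libraries per group, small changes of single genes could not be shown.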
